A study of Homo sapiens with 3 samples.

Results

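The genes described here govern phosphorylation of eIF2 alpha, the switch of the integrated stress response. They are the 4 eIF2 alpha kinase genes EIF2AK1, EIF2AK2, EIF2AK3 and EIF2AK4, the substrate gene EIF2S1, the phosphatase subunit genes PPP1R15A and PPP1R15B, and GCN1 and IMPACT, whose products act on the kinase GCN2. They were chosen by name: every probe set whose platform gene symbol was exactly 1 of these 9 was taken, which gave 19 of the 54613 probe sets that are not controls. The RNA came from undifferentiated khES3 cells, a line of human embryonic stem cells. Culture lasted 5 hours, either in complete medium or with leucine or lysine left out, and each of the 3 conditions was read on 1 Affymetrix array. The labels name no genetic change or other agent in any condition. With 1 array per condition nothing could be tested, the spread between cultures is unknown, and every difference below describes these 3 arrays.

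When a cell runs short of an amino acid, uncharged tRNA and stalled ribosomes activate GCN2, the product of EIF2AK4, with the help of the ribosome-bound scaffold GCN1; IMPACT competes for GCN1 and restrains the kinase. GCN2 phosphorylates eIF2 alpha, which slows the exchange factor eIF2B and most translation while favouring the transcription factor ATF4. PPP1R15A (GADD34) and PPP1R15B (CReP) then carry protein phosphatase 1 to eIF2 alpha and reverse the mark. PPP1R15A is the stress-induced of the pair and PPP1R15B the constitutive one. The arrays measured RNA and not kinase activity or phosphorylation.

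Signals are the authors' linear values, scaled to a trimmed mean of 500.1 on each array. A floor was set at the 40th percentile of each array (54.6 in complete medium, 56.7 without leucine and 62.4 without lysine). Differences are in log2 signal, so 1 is 2-fold. Of the 19 probe sets, 17 passed the level filter (a mean level at or above the median of all probe sets), and each of the 9 genes had at least 1 of them. A gene takes the value of its brightest such probe set. Brighter genes are those with a level at or above the median of the 12961 genes measured. Probe sets of 1 gene varied around their mean difference, and the pooled SD of this was taken. Over probe sets themselves at or above that level, the SD was 0.21 for leucine-deprived and 0.30 for lysine-deprived minus complete. For leucine- minus lysine-deprived it was 0.29. These 3 values leave out the dimmer probe sets of brighter genes. Over all genes with several probe sets the SD was 0.42, 0.48 and 0.48. These SDs leave out the spread between cultures. Of 12 markers of undifferentiated cells, 10 had a probe set that passed the filter and named 1 gene alone. Their median signal was 21765 in complete medium, 25251 without leucine and 23710 without lysine. For POU5F1 and TDGF1, as for the markers below that did not pass, low level and shared annotation were not told apart. Of 8 fibroblast or feeder markers 5 passed, with median signals of 3312, 3590 and 2868. The directions of these 5 were mixed. COL1A1 differed from complete medium by 0.19 without leucine and 0.69 without lysine (its probe sets from -0.26 to 1.46 without lysine). POSTN differed by 0.38 and 0.18, and its other probe set by -0.70 and -0.98. COL1A2 differed by 0.12 and -0.21, with a probe set at -0.77 without leucine. THY1 differed by -0.61 and -0.76, with other probe sets up to 0.13 and 0.04. DCN was under the floor without leucine and 0.76 higher without lysine, and COL3A1, LUM and PDGFRB did not pass. Of 8 markers of early differentiation 5 passed, all dim, with median signals of 126, 133 and 145. HAND1 was 1.08 and 0.89 higher and TBXT 0.24 and 1.41 higher than in complete medium, and the 4 measured after lysine removal had a median difference of 0.84. GATA6 differed by -0.57 and 0.00, SOX17 was under the floor without leucine and 0.80 higher without lysine, and EOMES was 0.31 higher without leucine and under the floor without lysine. The part of such cells in the results below was not tested. The 3′ to 5′ signal ratio of ACTB was 5.44 in complete medium, 7.55 without leucine and 11.2 without lysine, and that of GAPDH 1.08, 1.23 and 1.25. The part of RNA quality in the results below was not tested either.

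None of the 9 genes differed by 2-fold between any pair of conditions. In these bulk samples, fewer cells expressing a gene and less of its RNA per cell cannot be told apart. Among all genes above the floor on both arrays, 4.09% passed 2-fold for leucine-deprived against complete, 6.17% for lysine-deprived against complete and 4.74% between the deprivations, and among brighter genes 0.879%, 1.82% and 0.37%. At such shares a count of 0 among 9 is not particular to these genes. The members' median difference was 0.07 after leucine and 0.20 after lysine removal, beside 0.01 for all genes in each. Differences ran from -0.28 (EIF2AK4) to 0.39 (PPP1R15B) after leucine removal and from -0.05 (EIF2AK1) to 0.79 (PPP1R15A) after lysine removal. Those of 6 members were above 0 after leucine removal (51.7% of all genes) and those of 7 after lysine removal (50.7% of all genes). At a lower threshold of 1.5-fold, 0 members passed after leucine removal (15.3% of all genes), 1 (PPP1R15A) after lysine removal (21.9%) and 1 (EIF2AK4) between the deprivations (17%). With each array centred on its median the median of all genes moved to -0.12 and -0.24, which turned the direction of several small differences, as given gene by gene below.

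**Figure D1:**
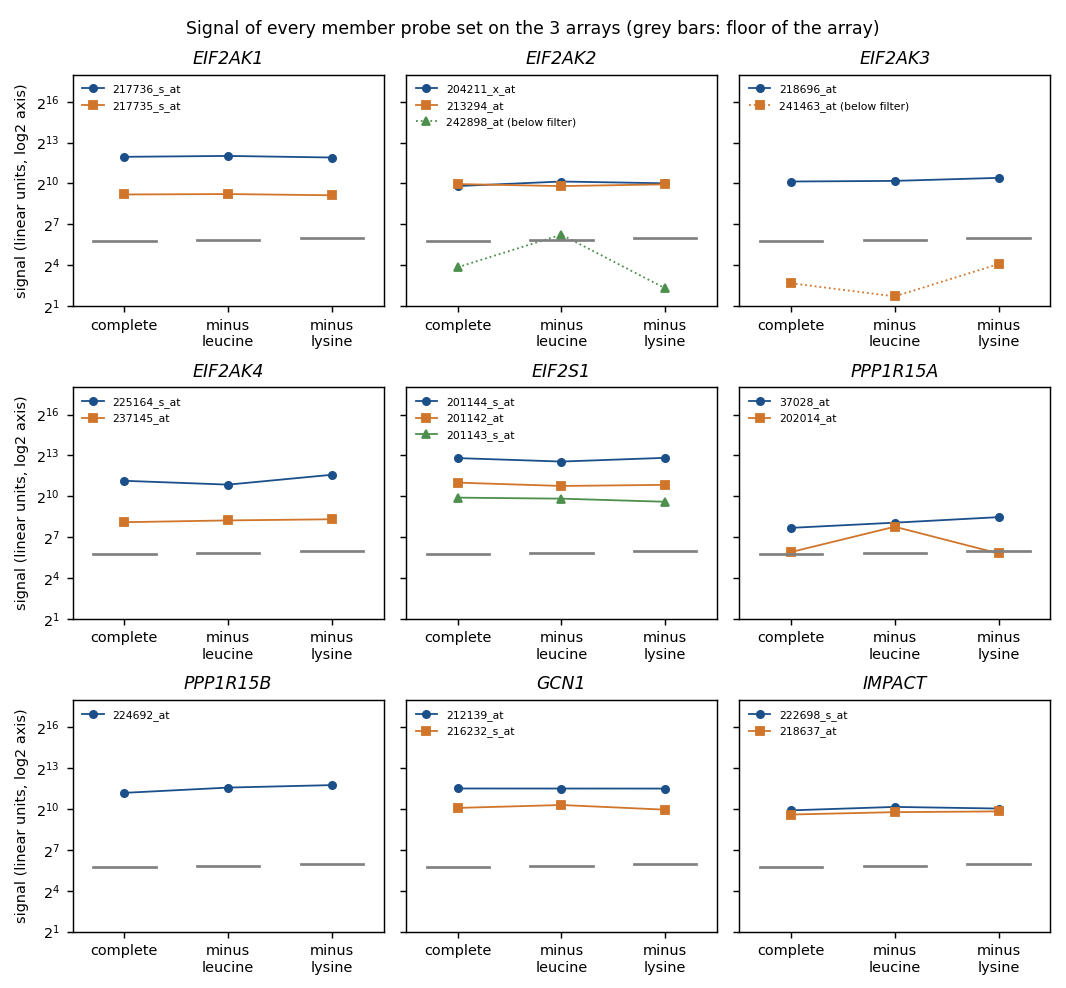
Signal of each of the 19 probe sets (vertical axis, linear units on a log2 axis) on the complete, leucine-deprived and lysine-deprived array (horizontal axis), 1 panel per gene; grey bars mark the floor of each array and dotted lines the 2 probe sets below the level filter. Most lines are nearly flat; the PPP1R15A probe set 202014_at is high only on the leucine-deprived array, and EIF2AK4 225164_s_at is highest on the lysine-deprived array at 3066.

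Over complete medium, the phosphatase genes had the largest differences of the set. With median centring this held after lysine removal only, since EIF2AK4 (-0.41) and EIF2S1 (-0.38) then differed more after leucine removal than PPP1R15A (0.25) and PPP1R15B (0.26). PPP1R15B, read by 1 probe set, had a signal of 2351 in complete medium, 3074 without leucine and 3486 without lysine. Both deprived arrays lay above the complete one, by 0.39 (1.31-fold) and 0.57 (1.48-fold). Among brighter genes these stood at percentile 91.4 and 93.2, and 14.6% and 12.3% of brighter genes differed by as much in either direction. PPP1R15B was higher than in complete medium under each of the 10 alternative settings, from 0.26 to 0.39 after leucine and from 0.32 to 0.60 after lysine removal. Without leucine it was 0.18 below its value without lysine, which is less than the SD between probe sets of a gene.

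PPP1R15A was read by a pair of dim probe sets that disagreed. The brighter, 37028_at, had signals of 205 in complete medium, 267 without leucine and 354 without lysine, so that complete was lowest and lysine-deprived highest. Its differences over complete medium were 0.38 (1.30-fold) and 0.79 (1.73-fold), at percentile 82.9 and 92.3 of all genes. The second probe set, 202014_at, had signals of 59.8, 218 and 56.0. It was 1.86 higher (3.64-fold) on the leucine-deprived array, whereas in lysine-deprived medium it lay under the floor, which leaves a difference of at most 0.06 over complete medium. In the leucine-deprived sample it was thus at least 3.49-fold higher than in the lysine-deprived one, while 37028_at differed by -0.41, the opposite way. This was the only 1 of the 17 member probe sets measured for leucine removal to pass 2-fold in either direction, beside 4.77% of all such probe sets. The gap between the pair, 1.48 after leucine removal, exceeded the SD of 0.42 between probe sets of a gene over all genes. That SD is pooled over kept probe sets of all levels, whereas 202014_at was near the floor of 54.6 in complete medium, at 59.8. The SD therefore does not tell how unusual such a gap is at this level. Averaged over both probe sets, PPP1R15A was 1.12 higher after leucine and 0.42 higher after lysine removal, the latter with 202014_at taken at the floor. Both probe sets lay above complete medium after leucine removal, and the size after either removal depends on the probe set.

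The promoters of this pair are shown because the gene values of both were higher on the deprived arrays and both windows hold letters of elements that ATF-family factors are known to bind. RefSeq promoter windows (GRCh38.p14, 250 bases before to 50 after the start) were matched by symbol for 8 of the 9 genes, the exception being EIF2AK1. The motifs searched, on both strands, were TGATGNAA (core of the amino acid response element), TGACGTCA (cAMP response element), its part TGACGT, which overlaps every TGACGTCA, and the ER stress response element (the CCAAT and CCACG boxes at their usual spacing). The 250 bases before each start follow, 5′ to 3′ on the gene's strand, at chr19:48872171-48872420 (plus strand) for PPP1R15A and chr1:204411818-204412067 (minus strand) for PPP1R15B, with fixed letters of the motif matches in capitals.
PPP1R15A: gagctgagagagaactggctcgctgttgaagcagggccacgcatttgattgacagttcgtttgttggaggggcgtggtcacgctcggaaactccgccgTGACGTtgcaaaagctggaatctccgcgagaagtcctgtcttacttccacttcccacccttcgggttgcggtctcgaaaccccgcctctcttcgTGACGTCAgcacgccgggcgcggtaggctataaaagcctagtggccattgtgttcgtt
PPP1R15B: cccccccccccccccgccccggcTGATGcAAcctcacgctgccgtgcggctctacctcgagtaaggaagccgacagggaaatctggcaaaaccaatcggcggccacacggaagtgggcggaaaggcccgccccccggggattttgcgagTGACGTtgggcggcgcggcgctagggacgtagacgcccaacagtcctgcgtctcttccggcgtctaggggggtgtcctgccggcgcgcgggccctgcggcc

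The PPP1R15A window held TGACGTCA with its first base at position -58 from the start, and a further TGACGT at -152. The PPP1R15B window held TGATGCAA, a match to TGATGNAA, at -227 and TGACGT at -101. Among all 35116 windows, 3.62% held TGATGNAA, 1.85% TGACGTCA, 7.98% TGACGT and 0.0769% the ER stress response element. None of the other 6 member windows (EIF2AK2, EIF2AK3, EIF2AK4, EIF2S1, GCN1 and IMPACT) held any of the 4, which says only that these letters are not in these windows. A match describes the sequence and is not evidence of binding on these arrays.

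EIF2AK4, which encodes GCN2, the kinase that answers to amino acid shortage, was the member whose brightest probe set differed most between the deprivations. That probe set, 225164_s_at, had signals of 2255 in complete medium, 1855 without leucine and 3066 without lysine. The leucine-deprived array was thus lowest and the lysine-deprived array highest, at -0.28 and 0.44 over complete medium. Leucine- minus lysine-deprived was -0.72, so the signal was 1.65-fold higher without lysine. Of 6481 brighter genes, 86 were as low or lower (percentile 1.31), and 2.42% differed by as much in either direction. The dimmer probe set, 237145_at, did not show this gap: its signals were 274, 300 and 318, and its leucine- minus lysine-deprived difference was -0.08. The pair disagreed in direction after leucine removal (-0.28 and 0.13) and had the same direction after lysine removal (0.44 and 0.22). Without probe sets whose identifiers end in _s_at or _x_at, which can match several transcripts or genes, EIF2AK4 took the values of 237145_at.

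The other 3 kinase genes differed less than EIF2AK4 between the deprivations. EIF2AK1 encodes HRI, which responds to haem shortage and mitochondrial stress. Its probe set 217736_s_at had signals of 3971 in complete medium, 4155 without leucine and 3835 without lysine, and 217735_s_at 584, 596 and 560. Both probe sets were within 0.07 of complete medium on either deprived array. The brighter was at 0.07 and -0.05, which became -0.07 and -0.30 with median centring.

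EIF2AK2 encodes PKR, the kinase activated by double-stranded RNA. Its brightest probe set, 204211_x_at, which carries the suffix for possible cross-hybridisation, had signals of 896, 1129 and 1030. Complete medium was lowest and leucine-deprived highest, at 0.33 and 0.20 over complete. The probe set 213294_at ran the other way, with 991, 895 and 978, or -0.15 and -0.02. The sign for EIF2AK2 thus depends on the probe set, and after lysine removal it also turned with median centring (-0.05). Its remaining probe set, 242898_at, was below the filter, with signals of 14.4, 75.5 and 4.90, above the floor on the leucine-deprived array only.

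EIF2AK3 encodes PERK, the kinase of the endoplasmic reticulum membrane that responds to unfolded protein. Signals of 218696_at were 1129 in complete medium, 1166 without leucine and 1359 without lysine. It was 0.05 over complete medium without leucine, which turned to -0.08 with median centring, and 0.27 over it without lysine, which became 0.02. Neither difference exceeded the SD between probe sets of a gene. The other EIF2AK3 probe set, 241463_at, lay under the floor on all 3 arrays (6.36, 3.25 and 16.9).

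**Figure D2:**
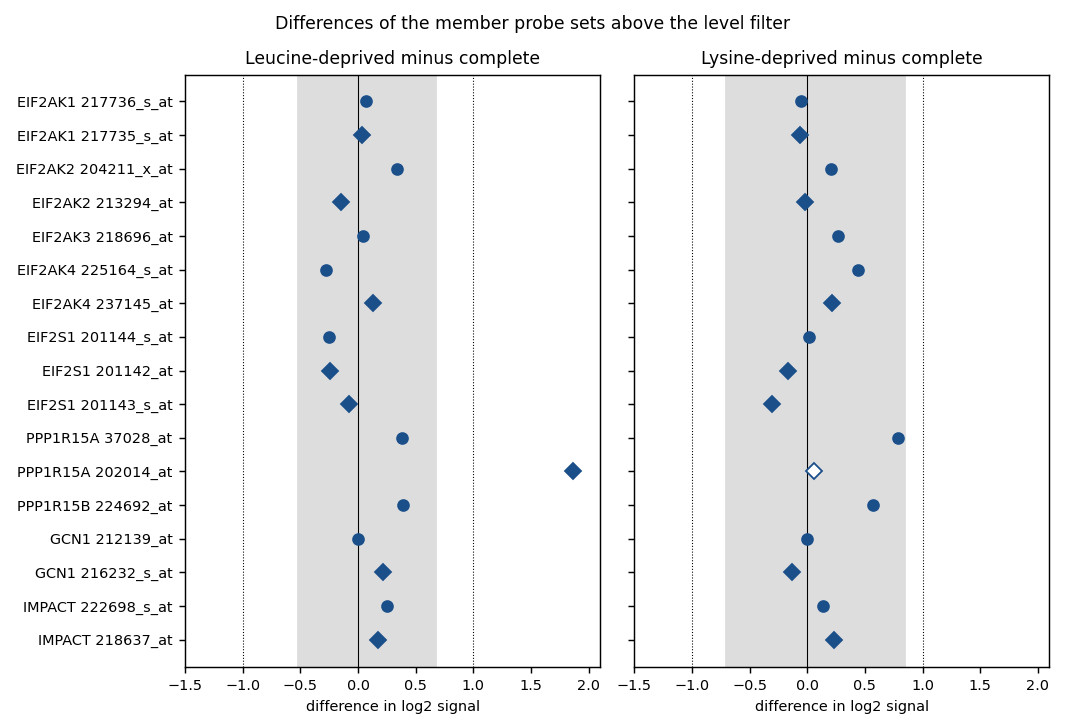
Difference in log2 signal over complete medium (horizontal axis) of the 17 member probe sets above the level filter, after leucine removal (left) and lysine removal (right); circles are the brightest probe set of a gene, diamonds its others, the open diamond a value at the floor in lysine-deprived medium, dotted lines 2-fold and the grey band the middle 95% of 6481 brighter genes. All points but PPP1R15A 202014_at after leucine removal, at 1.86, lie inside the band.

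The partners of GCN2 differed little. GCN1, which links GCN2 to the ribosome, had the flattest profile: signals of its brightest probe set, 212139_at, were 2935, 2929 and 2923, and its differences were -0.00 and -0.01. Its second probe set, 216232_s_at, had 1092, 1266 and 998, highest without leucine (0.21) and lowest without lysine (-0.13). With median centring the GCN1 gene value was -0.13 and -0.25, close to the shift of all genes.

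IMPACT, the GCN1-binding inhibitor of GCN2, had signals of 964, 1148 and 1057 by 222698_s_at and 780, 880 and 915 by 218637_at. On both probe sets both deprived arrays lay above complete medium, by 0.25 and 0.13 on the first and by 0.17 and 0.23 on the second. Which deprived array was higher differed between the probe sets. After lysine removal the gene value turned to -0.12 with median centring, and after leucine removal it stayed above 0 (0.12).

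EIF2S1, the gene of eIF2 alpha itself, was lower on all 3 of its probe sets after leucine removal. The brightest, 201144_s_at, had signals of 7162, 6009 and 7259, so that the leucine-deprived array was lowest. The next, 201142_at, had 2054, 1733 and 1834, and 201143_s_at 957, 908 and 775. Differences after leucine removal were -0.25, -0.25 and -0.08, and under the 10 alternative settings the gene value ran from -0.38 to -0.19. After lysine removal they were 0.02, -0.16 and -0.30, so the probe sets did not share a direction, and the gene value turned to -0.23 with median centring, -0.15 with probe sets averaged and -0.16 without _s_at and _x_at probe sets. At percentile 14.8 of brighter genes, the leucine difference of EIF2S1 was small: 31.7% of brighter genes differed by as much.

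Other genes of the pathway were described from 4 lists. The remaining subunits of eIF2 and the subunits of eIF2B, with EIF5, the GTPase-activating factor for eIF2, had a median difference of 0.05 after leucine and -0.13 after lysine removal over 8 genes. Of these 8, 5 were above 0 after leucine and 4 after lysine removal, and 0 passed 2-fold. EIF2S2, the beta subunit, was 0.47 and 0.41 higher, and EIF2S3, the gamma subunit, 0.18 and 0.39 higher, although the other EIF2S2 probe set was at -0.16 after lysine removal and other EIF2S3 probe sets reached -0.05 and -0.44. EIF2B4 differed by -0.31 and -0.37 and EIF2B2 by -0.13 and -0.34; both encode subunits of the exchange factor. Among the 3 catalytic subunits of protein phosphatase 1, PPP1CA differed by -0.30 and -0.55, PPP1CB by 0.05 and 0.29 and PPP1CC by 0.04 and -0.05.

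Regulators of the kinases had medians of -0.11 and -0.05 over 19 of 20 listed genes, with 9 above 0 on each deprived array. ABCF3, a relative of the yeast GCN20 protein that works with GCN1, had signals of 569, 400 and 140 on its only probe set, or -0.51 and -2.03. By brightest probe sets it was the only gene of this list past 2-fold over complete medium, 1 of 19 after lysine removal beside 6.17% of all genes. The difference between its 2 deprivation values was not tested. Dimmer probe sets of other listed genes, where values at the floor may be included, also went past 2-fold. PRKRA was at -0.11 and -0.05 on its brightest probe set and reached -1.46 and -1.24. METAP2 was at 0.32 after lysine removal and reached -1.39. HSP90AB1, a chaperone of kinases, differed by -0.28 and -0.65. MAP3K20, a sensor of stalled ribosomes, differed by -0.58 and -0.34 on its brightest of 7 probe sets. These 7 ranged from -1.15 to 0.78 after leucine and from -1.44 to 0.54 after lysine removal. RPLP2, of the ribosomal stalk that activates GCN2, was at 0.06 and 0.74 on its brighter probe set and at -0.78 and -1.53 on the other. Even the brighter was dim, with signals of 174, 182 and 292, whereas RPLP1, of the same stalk, had 78333 in complete medium. Whether these dim probe sets read RPLP2 RNA was not tested.

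Output genes of the response stood in contrast by size. All 25 listed genes were above 0 on both deprived arrays, with medians of 1.29 and 1.36; 16 were at least 2-fold higher after leucine and 17 after lysine removal, beside 2.66% and 4.22% of all genes. The lowest was PHGDH, at 0.43 and 0.03. Median centring moved the median of all genes to -0.24 after lysine removal, further than 0.03, so the count of 25 need not hold there. The list medians stayed at 1.16 and 1.12 with median centring. The list was drawn up with results of these arrays known, so its direction is not independent evidence. TRIB3, a pseudokinase that feeds back on the response, had signals of 242, 3376 and 3258, and DDIT3, which encodes CHOP, 319, 2830 and 2776. DDIT4, an inhibitor of mTORC1, was 2.91 and 2.93 higher and STC2, a secreted glycoprotein, 2.66 and 2.94 higher. Past 2-fold on both arrays were also CHAC1, ATF3, SLC7A11, CEBPB, ATF5, MTHFD2, VLDLR, SESN2, ASNS, CEBPG and HERPUD1. Some of their other probe sets did not show this after lysine removal: the lowest was at -0.28 for ATF3, 0.10 for SLC7A11, 0.14 for ATF5 and 0.99 for MTHFD2, as well as 0.55 for TRIB3. AARS1 (1.15) passed after leucine removal only, and PSAT1 (1.11) and NUPR1 (1.37) after lysine removal only. That difference was not tested. PSAT1 was at 0.93 after leucine removal, and its other probe set had the reverse pattern, with 1.08 after leucine and 0.24 after lysine removal. ATF4 had signals of 15422, 23778 and 26784, or 0.62 and 0.80 over complete medium. Of the output genes matched to a promoter window, 8 of 23 held TGATGNAA, beside 3.62% of all windows, and 0 of 23 held TGACGTCA, TGACGT or the ER stress response element.

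**Figure D3:**
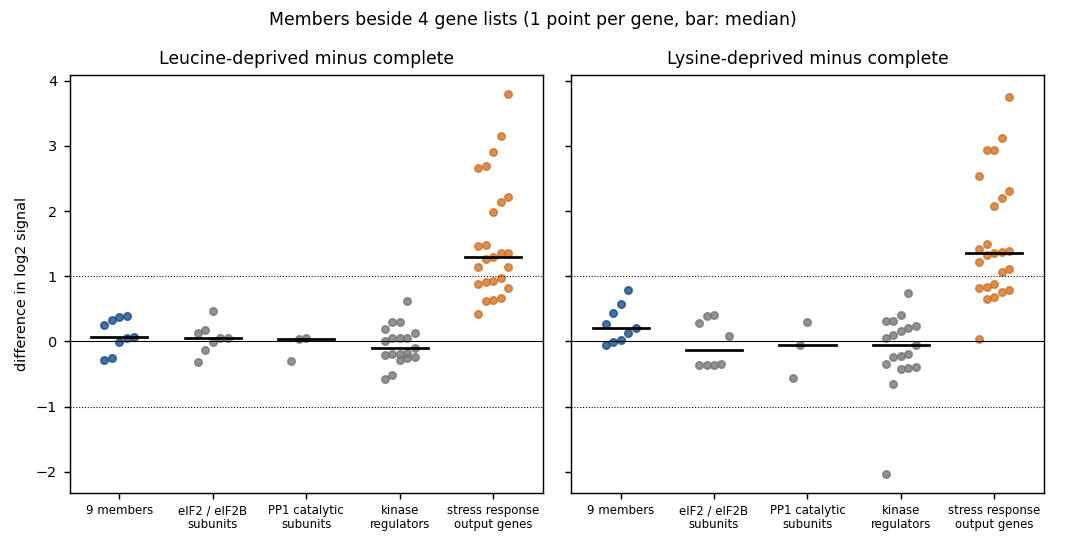
Difference in log2 signal over complete medium (vertical axis) for the 9 members and the measured genes of 4 lists (horizontal axis), after leucine removal (left) and lysine removal (right); each point is a gene, bars are medians and dotted lines mark 2-fold. The members lie between -0.28 and 0.79, while the output genes have medians of 1.29 and 1.36.

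The 5 genes with the pattern most like PPP1R15A, the member with the largest mean absolute difference, were LCOR, TAPT1, PHLDA1, JMY and DMXL1. Likeness was the Euclidean distance between the pairs of differences over complete medium, computed over 3 arrays among 6481 brighter genes. PPP1R15A is not itself a brighter gene (level percentile 30.3 of the genes measured), so genes as dim were not candidates. With 2 values per gene and so many candidates, some short distances must occur, and they do not show a shared response. LCOR, at a distance of 0.003, differed by 0.38 and 0.79, and DMXL1, at 0.037, by 0.39 and 0.75. The distance rests on 37028_at, and on 202014_at the pattern of PPP1R15A is another.

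**Figure D4:**
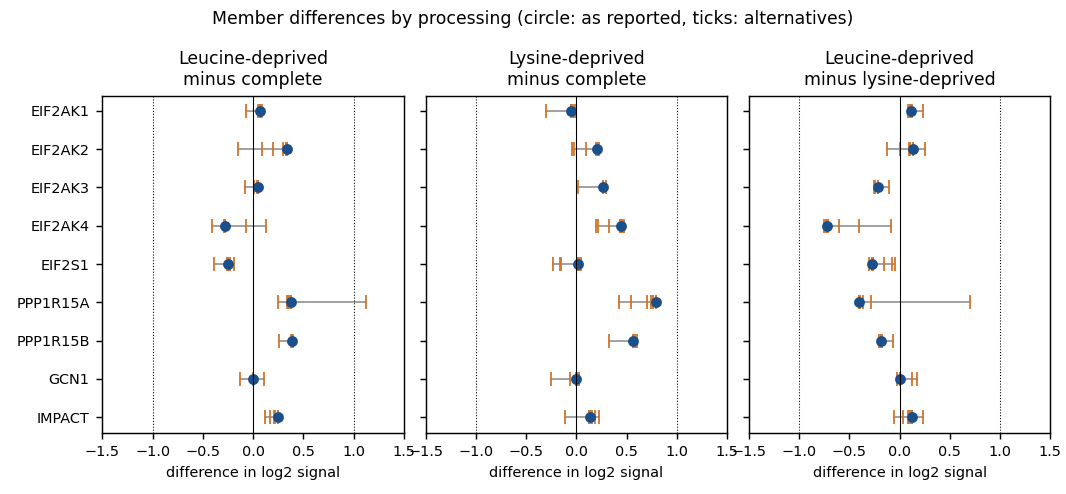
Difference in log2 signal (horizontal axis) of each member (vertical axis) as given in the text (circles) and under the alternative settings (ticks), for the 3 comparisons; dotted lines mark 2-fold. PPP1R15A after leucine removal is the only value past 2-fold under any setting, at 1.12 with probe sets averaged, and for leucine- minus lysine-deprived its direction turns to 0.70 there, with 202014_at at the floor without lysine.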

How the data were processed

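The authors deposited linear intensity values for each probe set, made with MAS5 per the submitters' processing notes (version and settings: not given in the sources used here). Scaling to a common mean removes any difference in total RNA. Of 54675 probe sets, 62 controls were left out, and 41091 name 1 gene in the platform annotation. Values were floored, taken to log2, filtered (23055 probe sets of 12961 genes kept) and subtracted between arrays; a value at the floor on 1 array gives a bound. The members, lists, naming rule and alternatives were chosen with earlier results of these data known. By the naming rule, all members with every probe set, up to 4 genes per list and any list gene past 2-fold, and the 5 nearest genes are given. Alternatives were 3 normalizations, 2 floors, log2(value + 32), 2 level filters, averaged probe sets, leaving out _s_at and _x_at probe sets, and other folds. The calculations were tested on simulated arrays. Python 3.11.15, numpy 2.4.6, pandas 2.3.3, and, for cyclic loess, R 4.3.3 with limma 3.58.1 did the work. Precision is limited by the number of arrays.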

Additional observations from a re-analysis of the deposited data

How the results depend on the processing

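The count of members past 2-fold was 0 in each comparison. It became 1 for leucine-deprived against complete with probe sets averaged (PPP1R15A), and 1 with a 1.5-fold threshold for lysine-deprived against complete (PPP1R15A, where 21.9% of all genes passed) and for leucine- against lysine-deprived (EIF2AK4, where 17% passed). The list medians moved by less than the SD between probe sets of a gene under every alternative run. Of 267 member values under alternatives, 259 did so too. The other 8 belong to PPP1R15A, EIF2AK4 and EIF2AK2 with probe sets averaged or with _s_at and _x_at left out. EIF2AK1 has no value without _s_at and _x_at probe sets. The 2 floors and 2 level filters left every member value unchanged, so agreement under them carries no information on the members. The same holds for PPP1R15B and EIF2AK3 with probe sets averaged or with _s_at and _x_at left out. Each had 1 kept probe set, with neither suffix.

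Median centring moved the share of higher among 2-fold genes from 65.0% to 43.4% after leucine removal, from 68.3% to 30.7% after lysine removal and from 40.8% to 59.2% between deprivations; quantile normalization gave 57.7% for lysine removal and 52.0% between deprivations. All genes past 2-fold numbered 503, 755 and 578 in these comparisons, against 865, 1222 and 1045 for a floor at the 20th percentile, 164, 308 and 164 for one at the 60th, and 136, 278 and 145 with the level filter at the 70th percentile. No paired analysis was possible because each condition has 1 array.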

Other observations

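A pair of probe sets carry symbols derived from EIF2AK3 and are not members: EIF2AK3-DT (236990_at) had signals of 107 in complete medium, 43.4 without leucine and 51.6 without lysine, and EIF2AK3-AS1 (1568804_at) 74.4, 10.03 and 86.9. Both were below the level filter.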
